A study of Mus musculus with 74 samples.

Results

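The regions described here are the surroundings of 5 genes of the pluripotency network, Prdm14, Klf4, Nanog, Esrrb and Pou5f1, each on a different chromosome. A window of 40 kb belonged to a neighbourhood if it overlapped 1 Mb either side of a fixed mm9 position at the gene. The neighbourhoods so defined were chr1:12080001-14120000 for Prdm14, chr4:54520001-56560000 for Klf4, chr6:121640001-123680000 for Nanog, chr12:86760001-88800000 for Esrrb and chr17:34640001-36640000 for Pou5f1. This rule selected 51 windows for each of the first 4 genes and 50 for Pou5f1, 254 of the 68162 windows of the table. The rule itself uses positions and no measured value.

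The windows were scored by genome architecture mapping (GAM), in which frozen cells are cut into thin cryosections, the slice of 1 nucleus (a nuclear profile, NP) is isolated by laser microdissection, and its DNA is amplified and sequenced. The 74 libraries each held 1 nuclear profile (1NP) of 46C mouse embryonic stem (ES) cells, a 129/Ola line with a green fluorescent protein reporter at Sox1, a gene of early neural cells. All cells were grown with serum and leukaemia inhibitory factor (LIF) and re-plated into serum-free ESGRO medium after the last passage, so the libraries form 1 group with no treated, differentiated or mutant counterpart. The study's sample list gives them as a single biological replicate, and every p-value below therefore measures only the spread between these nuclear profiles. The calls are DNA presence and carry no expression, so the ES cell identity could not be checked against marker genes.

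ES cells hold their undifferentiated state through a small set of transcription factors that bind to each other's genes. Pou5f1 (also called Oct4) encodes a POU-domain factor, Nanog a homeodomain protein, Klf4 a zinc finger protein of the Krüppel-like family, Esrrb an orphan nuclear receptor and Prdm14 a PR-domain zinc finger protein that represses differentiation genes. A thin slice samples a small part of a nucleus, so nearness in space raises the chance that a single slice catches both of a pair of loci, an event called co-segregation. The comparisons ask how often each neighbourhood was captured, whether its windows were captured together, and whether neighbourhoods on different chromosomes were captured together, each against windows of the same chromosomes.

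The sequences below show what a few of the windows hold. They were read from the mm9 reference, 5′ to 3′ on the strand named. The first pair are the stretches from 250 bases before to 50 bases after the annotated starts of Nanog (chr6:122657257-122657556, plus strand) and Esrrb (chr12:87701817-87702116, plus strand). Capitals mark an exact match to the Sox-type motif CATTGT on either strand. These were the only exact matches to the motifs searched, named below, around the 5 gene starts.
Nanog start: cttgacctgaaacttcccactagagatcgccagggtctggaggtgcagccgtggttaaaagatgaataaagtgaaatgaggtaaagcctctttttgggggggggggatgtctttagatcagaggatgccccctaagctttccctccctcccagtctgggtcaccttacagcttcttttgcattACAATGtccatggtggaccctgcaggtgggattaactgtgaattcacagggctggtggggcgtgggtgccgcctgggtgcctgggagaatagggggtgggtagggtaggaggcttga
Esrrb start: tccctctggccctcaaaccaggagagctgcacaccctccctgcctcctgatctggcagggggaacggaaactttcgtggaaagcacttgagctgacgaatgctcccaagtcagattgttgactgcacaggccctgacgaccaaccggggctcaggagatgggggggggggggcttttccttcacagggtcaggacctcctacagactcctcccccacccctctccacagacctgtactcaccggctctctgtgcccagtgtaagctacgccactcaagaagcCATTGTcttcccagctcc
The Sox-type motif was found in 10.6% of 22350 such stretches of protein-coding genes. The octamer ATGCAAAT (in 1.73%), AAGGTCA (3.92%), CCACACCC (3.68%) and TATAAA (13.4%) had no exact match around the starts of these 5 genes. Near matches were not counted, so a site that differs by a single base is missed. At Nanog the stretch ttttgcat, beside the Sox-type match, differs by a single base from ATTTGCAT, the octamer read on the other strand. Klf4's start had the highest GC content of the 5, at 74.3%, with 40 CpG sites, against 54.3% and 4 sites at Nanog and a median GC content of 55.3% over all stretches.

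The next sequences are the central 300 bases of 3 windows, shown because they differ in how far their words of 31 bases recur in the genome. Capitals mark bases inside a word that occurs more than once in mm9 on either strand. The first is the centre of a window of the Nanog neighbourhood that was called in 0 libraries (chr6:123459851-123460150, plus strand), and all 270 of its words recurred. The next is the centre of the Nanog neighbourhood's most often called window, in 9 libraries (chr6:122219851-122220150, plus strand), with 0 repeated words. The last is the centre of the Klf4 neighbourhood's window called in 0 libraries (chr4:56219851-56220150, plus strand), also with 0.
Nanog, undetected: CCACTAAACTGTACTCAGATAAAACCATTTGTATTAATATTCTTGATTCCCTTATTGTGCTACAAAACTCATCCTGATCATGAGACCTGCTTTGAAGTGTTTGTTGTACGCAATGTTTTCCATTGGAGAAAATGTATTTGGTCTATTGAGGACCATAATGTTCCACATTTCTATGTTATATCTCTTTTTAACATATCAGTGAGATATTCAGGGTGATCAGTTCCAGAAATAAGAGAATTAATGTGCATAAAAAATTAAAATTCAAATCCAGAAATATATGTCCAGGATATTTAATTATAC
Nanog, most detected: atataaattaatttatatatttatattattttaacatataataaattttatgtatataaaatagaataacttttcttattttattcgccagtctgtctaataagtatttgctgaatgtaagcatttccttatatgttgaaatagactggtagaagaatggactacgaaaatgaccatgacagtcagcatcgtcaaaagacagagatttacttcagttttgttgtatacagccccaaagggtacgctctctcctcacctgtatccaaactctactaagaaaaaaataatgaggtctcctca
Klf4, undetected: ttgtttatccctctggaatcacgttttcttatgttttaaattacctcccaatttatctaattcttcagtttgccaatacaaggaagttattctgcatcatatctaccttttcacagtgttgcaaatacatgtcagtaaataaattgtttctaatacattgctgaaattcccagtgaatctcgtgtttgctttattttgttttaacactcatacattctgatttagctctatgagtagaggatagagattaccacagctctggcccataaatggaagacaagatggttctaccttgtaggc

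The deposited calls gave libraries of very different size. Between 0.0205% and 12.4% of all windows were positive in a library, with a median of 5.16%, and 5 libraries were under 1%. The mean over the autosomes was 5.66%. The library names begin with f13 (34 libraries) or f14 (40), which the labels do not explain and whose part in the values was not tested.

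Mean capture of the 5 neighbourhoods lay between 0.738 (Nanog) and 1.23 times (Prdm14) that of the rest of their chromosomes, and none of the differences passed the test. Prdm14 was captured most, with 8.43% ± 16.1 of its windows positive per library (SD, n = 74), against 6.86% for the rest of chromosome 1. For Klf4 the mean was 4.98% ± 12.8 against 5.05% for the rest of chromosome 4. For Nanog it was 4.61% ± 8.58 against 6.25% on chromosome 6. These means rest on few libraries, since for each of the 5 neighbourhoods, taken separately, the median library held no window. For Esrrb the mean was 4.43% ± 9.80 against 5.30% on chromosome 12, and for Pou5f1 4.95% ± 10.9 against 5.67% on chromosome 17.

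The difference from the chromosome was 1.57 ± 1.62 percentage points for Prdm14 (SE, n = 74; sign-flip permutation test over libraries, p = 0.351, adjusted p = 0.830). It was -1.64 ± 1.03 points for Nanog (95% interval -3.65 to 0.371, permutation p = 0.114, adjusted p = 0.587), and -0.609 points within 0.5 Mb either side. For Klf4, Esrrb and Pou5f1 the differences were -0.066, -0.874 and -0.722 points, with adjusted p of 0.994, 0.876 and 0.904 from the same permutation test. Without f14d5 the Klf4 difference was -0.783 points, and over all single libraries left out it reached 0.247, with the sign turned in 14 cases. At Esrrb it ranged from -1.43 points without f14a1 to -0.538 without f14d2, and at Pou5f1 from -1.25 points without f13a3 to -0.532 without f14e3. The Pou5f1 difference was 0.835 points within the f13 libraries and -2.045 points within the f14 libraries. The same test over all 1173 autosomal stretches of this size called 30, or 2.56%, of which 29 were lower than their chromosome and 1 was higher. At an unadjusted p under 0.05 it marked 128 of the 1173 and 0 of the 5 neighbourhoods. The Prdm14 excess rested largely on 1 profile, and without the library f14c5 the difference was 0.569 points. Within the f13 libraries it was -0.279 points and within the f14 libraries 3.14 points. Against all autosomes in place of the chromosome, the differences were 2.63 points (Prdm14), -0.814 (Klf4), -1.19 (Nanog), -1.37 (Esrrb) and -0.85 (Pou5f1).

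Set among stretches of equal size on their own chromosomes, the neighbourhoods spread over much of the range. Prdm14 was above 77 of 93 stretches of chromosome 1 and Klf4 above 40 of 73 of chromosome 4. Esrrb was above 17 of 56 and Pou5f1 above 13 of 43. Nanog was lowest in this order, above 8 of 70 stretches of chromosome 6, whose median was 6.15%.

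**Figure D1:**
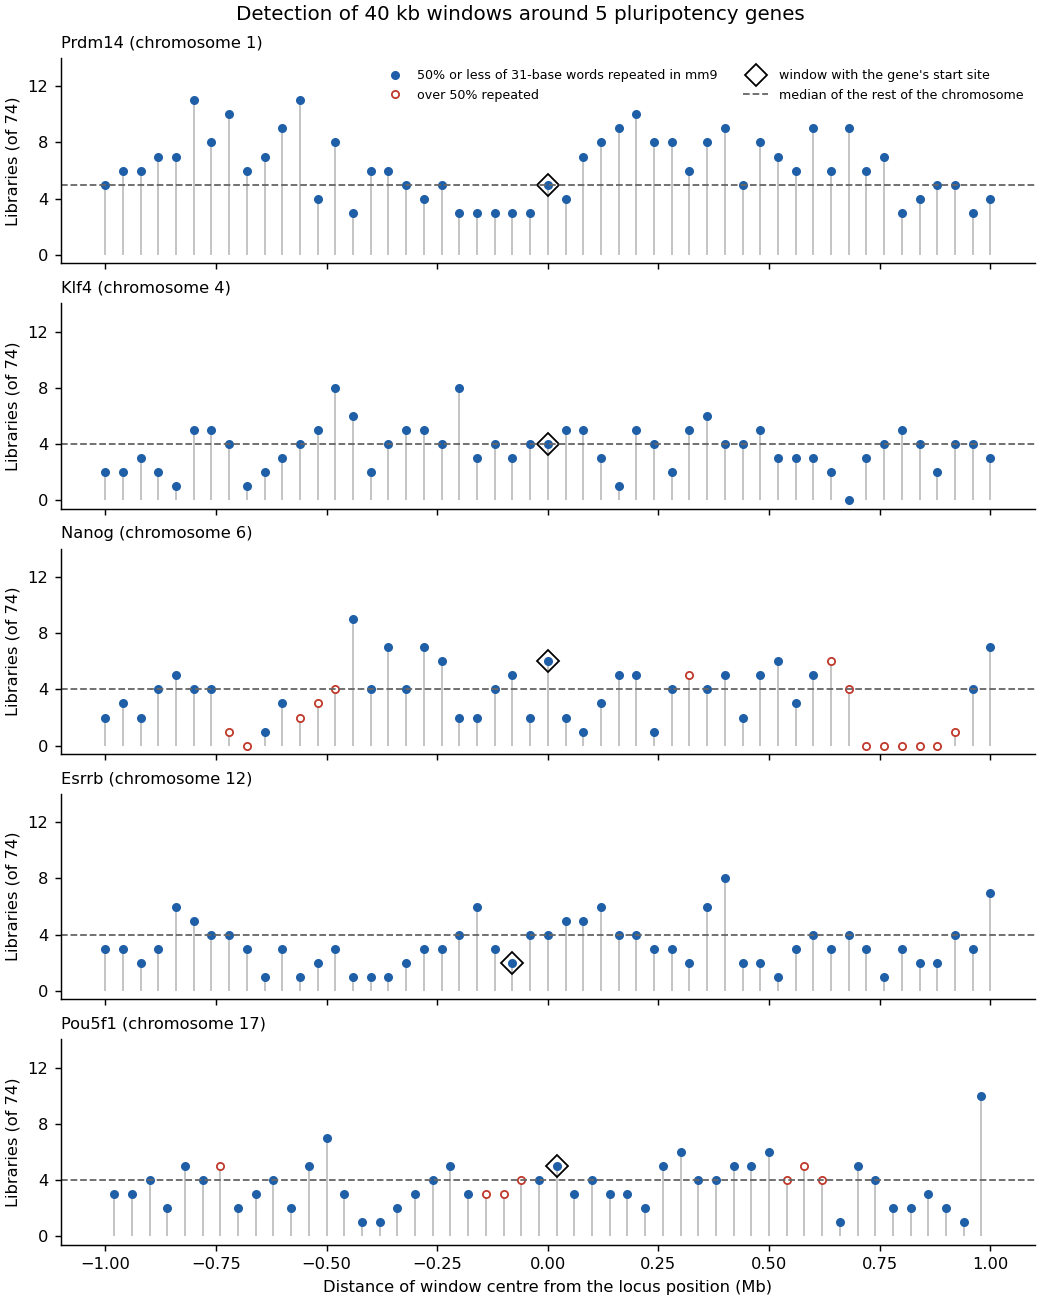
Number of libraries, of 74, positive for each 40 kb window (vertical axis) against the distance of the window's centre from the locus position in Mb, with open red points for windows in which over 50% of 31-base words recur in mm9, diamonds for the windows with the gene starts and dashed lines for the median of the rest of the chromosome. The Nanog panel holds a run of 5 windows at 0 from 0.72 to 0.88 Mb, all open points.

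A member window was positive in a median of 4 libraries and at most 11. The median over all 60391 autosomal windows from 3 Mb on was also 4. The Prdm14 windows ranged from 3 to 11 libraries with a median of 6, and none was missed. Its most detected windows were chr1:12280001-12320000 and chr1:12520001-12560000, each in 11 libraries (14.9%, 95% Wilson interval 8.51% to 24.7%) and neither with a protein-coding gene start. Between them and the gene lay a low plateau, in which 5 consecutive windows, chr1:12880001-13080000, the start of the transporter gene Slco5a1 among them, were each in 3 libraries. The Klf4 windows ranged from 0 to 8 libraries (median 4), the Esrrb windows from 1 to 8 (median 3) and the Pou5f1 windows from 1 to 10 (median 4).

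In the Nanog neighbourhood the windows ranged from 0 to 9 libraries (median 4), and 6 of the 51 (11.8%) were positive in no library, against 1.08% of the other windows of chromosome 6. A count of 0 in 74 libraries allows a detection frequency of up to 4.05% if 3 counts are taken as the limit, and the 95% Wilson upper bound is 4.93%. Of these 6 windows, 5 formed 1 block, chr6:123360001-123560000, with the starts of Vmn2r20 and Vmn2r21. These belong to the vomeronasal type 2 receptors, a large family of closely similar pheromone receptor genes that stand in clusters. The sixth was chr6:121960001-122000000, with no protein-coding gene start. The reference has no unknown bases in any of them.

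Repeated sequence moved with these counts. In the 6 undetected Nanog windows between 75.1% and 100% of 31-base words occurred more than once in mm9, and in the block of 5 the share was at least 99.5%. Over the neighbourhood 14 of 51 windows were more than 50% repeated, against 4.42% of 362 windows sampled along the rest of chromosome 6. These 14 windows were positive in 0 to 6 libraries with a median of 1, and the other 37 in 1 to 9 with a median of 4. The count did not follow repetition everywhere. The Pou5f1 neighbourhood, inside the major histocompatibility complex with its similar class I genes, had 7 of 50 windows over 50% repeated, and these were in 3 to 5 libraries (median 4) against a median of 3 for the other 43. Klf4's undetected window, chr4:56200001-56240000, was 5.08% repeated. With the 14 repeated windows left out, an alternative chosen after seeing the data, Nanog differed from its chromosome by -0.844 points in place of -1.64. The chromosome kept its repeated windows. When both sides kept only windows positive in at least 1 library, the difference was -1.09 points. How reads from repeated sequence were handled before the calls was not tested.

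The neighbourhoods differed in composition too. The Pou5f1 neighbourhood held 118 protein-coding gene starts, or 59 per Mb against 10.8 per Mb on the rest of chromosome 17, and its GC content was 48.3%. Esrrb's held 30 (14.7 per Mb against 5.80) at 46.6% GC, and Nanog's 32 (15.7 per Mb against 7.88) at 41.2% GC. Klf4 lay in a gene-poor stretch with 3 gene starts (1.47 per Mb against 8.98), and Prdm14's held 7 (3.43 per Mb against 6.41).

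The windows with the gene starts themselves were seen in few profiles. Nanog's (chr6:122640001-122680000, the gene at chr6:122657507-122664651) was positive in 6 libraries, f13b6, f13d1, f13f2, f13f4, f14b3 and f14f3, or 8.11% of 74 (95% Wilson interval 3.77% to 16.6%). Prdm14's (chr1:13080001-13120000, the gene at chr1:13103538-13117244 on the minus strand) was positive in f13e4, f13f4, f14a6, f14c5 and f14f5. Pou5f1's (chr17:35640001-35680000, the gene at chr17:35642982-35647721) was positive in f13a3, f13c1, f13c2, f14b6 and f14e3, 5 libraries as for Prdm14 (6.76%, interval 2.92% to 14.9%). These intervals cover counting error only and overlap for all 5 genes. Klf4's window (chr4:55520001-55560000, the gene at chr4:55540013-55545347 on the minus strand) was positive in f13a5, f13b1, f13d3 and f14d5 (5.41%, interval 2.12% to 13.1%). Esrrb's (chr12:87680001-87720000, the gene at chr12:87702067-87862578) was positive in f13b4 and f14f5 only (2.70%, interval 0.744% to 9.33%), and its gene body runs on over the following windows.

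Where a gene's window was caught, the slice often carried a longer piece. Prdm14's window lay in runs of consecutive positive windows of 440, 40, 560, 1400 and 80 kb, in the order of the libraries named above. Klf4's lay in runs of 80, 400, 120 and 160 kb, Esrrb's in runs of 120 and 200 kb, and Pou5f1's in runs of 80, 200, 440, 200 and 40 kb. Nanog's window stood alone in 3 of its 6 libraries, and the other runs were 440, 80 and 80 kb. In f14b3, the library with the highest coverage of all, it was the only positive window of the neighbourhood.

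Other genes of the neighbourhoods gave 1 to 8 libraries per start window, 16 genes in 14 windows, with a median over the genes of 3.5. On chromosome 6 the germ cell and early embryo factor Dppa3 and the growth factor gene Gdf3 share a window 0.08 Mb from Nanog's, which was positive in 5 libraries, 3 of them together with Nanog's. Independent presence would give 0.405 libraries for that pair. Apobec1, an RNA-editing enzyme gene, was in 4 libraries, 3 of them with Nanog. The window of the glucose transporter gene Slc2a3, also 0.08 Mb away, was positive in 1 library, f13d1, which also held Nanog's. On chromosome 1 the nuclear receptor coactivator gene Ncoa2 was in 8 libraries, 3 of them with Prdm14 over 0.28 Mb, and Slco5a1 in 3, of which 2 held Prdm14. Each of these pairs was seen together more often than independent presence gives, but so are windows at these distances in general. On the rest of chromosome 6, pairs of windows 0.08 Mb apart were together in 2.15 libraries on average, and 35.8% of them in at least 3. At 0.12 Mb, as for Apobec1, 33.2% were in at least 3. On the rest of chromosome 1, 33.3% of pairs 0.28 Mb apart were together in at least 3 libraries, as Ncoa2 and Prdm14 were, and 66.1% of those 0.12 Mb apart in at least 2, as for Slco5a1.

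On chromosome 4 the DNA repair gene Rad23b was in 3 libraries, 2 of them with Klf4, and the zinc finger gene Zfp462 in 3, of which 1 held Klf4 over 0.6 Mb. At the same distances, 47.99% and 69.1% of window pairs of the rest of the chromosome were together at least as often. On chromosome 12 the angiogenesis inhibitor gene Vash1 was in 3 libraries, Angel1 in 3, the growth factor gene Tgfb3 in 1 and the AP-1 repressor gene Jdp2 in 6. Of these only Angel1 was seen with Esrrb, in 1 library, as were 72.8% of other pairs at its distance. On chromosome 17 Tcf19 and Cchcr1 start in Pou5f1's own window, so they shared its 5 libraries. The membrane raft gene Flot1 was in 4 libraries, 2 of them with Pou5f1, and the collagen receptor gene Ddr1 in 2, of which 1 held Pou5f1. Of other pairs of chromosome 17 at these distances, 46.7% and 80.6% were together at least as often.

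Genes of the pluripotency network that lie elsewhere had similar counts. The start windows of 20 such genes were positive in 2 to 9 libraries with a median of 4, and 9 were above the autosomal median of 4, 9 below and 2 at it. Over all autosomal windows from 3 Mb on 43.3% were above. Nr5a2, a nuclear receptor, and Mycn were in 9 libraries each, and Sall4 in 8. Sox2, the partner of Pou5f1 on DNA, was in 2, as were Tbx3, Zfp42 and Prdm15.

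Each neighbourhood was touched by many more libraries than held much of it. At least 1 window was positive in 28 libraries for Prdm14, 24 for Klf4, 29 for Nanog, 24 for Esrrb and 32 for Pou5f1. Among these, the median share of windows was 18.6% for Prdm14, 7.84% each for Klf4, Nanog and Esrrb, and 5.00% for Pou5f1. The libraries with over 90% of a neighbourhood numbered 1, f14c5 at Prdm14 with 92.2% and an unbroken 1400 kb. The highest share was 66.7% at Klf4 (f13b1), 39.2% at Nanog (f13b6), 47.1% at Esrrb (f14a1) and 50% at Pou5f1 (f14b6). No slice therefore held 50% of the Nanog or Esrrb windows, while 2 did so at Prdm14, 2 at Klf4 and 1 at Pou5f1.

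Coverage moved with presence at some of the loci. Libraries with at least 1 Pou5f1 window had a median autosomal coverage of 7.02%, against 4.57% for those without. For Prdm14 the medians were 6.15% and 4.70%, and for Klf4 6.09% and 5.11%. For Nanog (5.11% and 5.44%) and Esrrb (5.20% and 5.59%) the order was the other way. The prefixes were unequal at Nanog, where 9 of 34 f13 and 20 of 40 f14 libraries held a window, at Prdm14 with 10 and 18, and the other way at Pou5f1 with 18 and 14. At Klf4 and Esrrb 12 of each prefix did. The part of coverage and prefix in these counts was not tested.

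**Figure D2:**
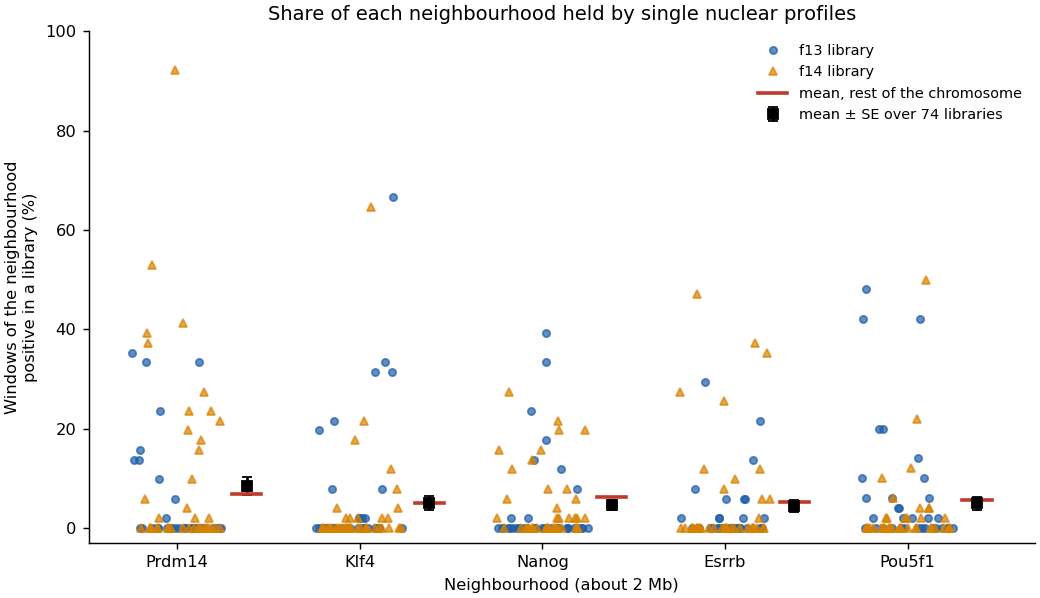
Percent of the windows of each neighbourhood positive in a library (vertical axis), with 1 point per library and neighbourhood, circles for f13 and triangles for f14 libraries, black squares for the mean with its SE over 74 libraries and red bars for the mean of the rest of the chromosome. Most points sit at 0, and the highest is f14c5 at Prdm14 with 92.2%.

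Within a neighbourhood, windows 0.2 to 1 Mb apart were captured together in 3.19% of libraries on average at Prdm14, 1.94% at Klf4, 1.42% at Pou5f1, 1.14% at Esrrb and 0.908% at Nanog. The rest of the same chromosomes gave 2.41%, 1.72%, 1.94%, 1.75% and 2.04%. These percentages are not adjusted for how often the windows were detected, so they fall where detection is low. At Nanog mean capture was 0.738 times that of the rest of chromosome 6. Of its 756 pairs, 136 hold a window called in 0 libraries and cannot be positive together. The Pou5f1 difference of -0.516 points was -0.800 without f13c2 and -0.347 without f14c5, and that at Esrrb ranged from -0.904 without f14a1 to -0.434 without f14d2. At Pou5f1 it was 0.221 in the f13 libraries and -1.14 in the f14 libraries. The Prdm14 excess of 0.775 points turned to -0.287 without the library f14c5, and it was -0.493 in the f13 libraries and 1.85 in the f14 libraries. The Klf4 excess of 0.217 points turned to -0.332 without f13b1, and its sign also turned without f14d5. Nanog had the lowest value, at 0.444 times that of chromosome 6, and only 3 of 70 stretches of that chromosome were lower. Its difference was -1.14 ± 0.415 points (SE, n = 74), with a sign-flip permutation p of 0.00446 and an adjusted p of 0.0654, short of the threshold of 0.05. None of the other differences was near it, with adjusted p of 0.986 (Prdm14), 0.995 (Klf4), 0.760 (Esrrb) and 0.872 (Pou5f1) from the same permutation test. Of all 1173 stretches the test called 73, or 6.22%, all of them lower, and it marked 157 at an unadjusted p under 0.05, Nanog alone among the 5 neighbourhoods.

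The Nanog value depended on which calls entered. It was past the threshold, at -0.937 points with an adjusted permutation p of 0.0164, when positive windows without a positive neighbour were set to negative, and also without f13b6 (-1.34 points, adjusted permutation p = 0.00326), f14f3 (-1.25, 0.0228), f13d1 (-1.20, 0.0414) or f13f4 (-1.21, 0.0418), 4 libraries that held Nanog's own window. Over all single libraries left out the adjusted p ranged from 0.00326 to 0.113. With the repeated windows of the neighbourhood left out, but not those of the chromosome, the difference was -0.911 points (adjusted permutation p = 0.419). When both sides kept only windows positive in at least 1 library, it was -0.985 points (adjusted permutation p = 0.367). Over 0.5 Mb either side it was -0.625 points (adjusted permutation p = 0.887). It was -0.658 points within the f13 libraries and -1.54 points within the f14 libraries. The differences between libraries were skewed, which the sign-flip test does not allow for. The same test also made calls, though fewer, on each simulated table without structure at any place. Its adjusted p-values for lower stretches, those past the threshold included, therefore tend to be too small. All 73 stretches that it called were lower and 0 were higher, so a higher value that did not pass, as at Prdm14 or Klf4, says less.

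Co-segregation fell with distance in all 5 neighbourhoods, as along their chromosomes. Adjacent windows were both positive in 5.43% ± 1.57 of libraries at Prdm14 (SE, n = 74), and windows 1 Mb apart in 2.13% ± 1.19. At Nanog the values were 2.00% ± 0.613 and 0.468% ± 0.245, against 3.29% and 1.74% on the rest of chromosome 6. At Klf4 they were 2.68% and 1.66%, at Pou5f1 2.32% and 0.865%, and at Esrrb 1.65% and 1.14%. The Esrrb curve was the flattest, starting below its chromosome (2.74% for adjacent windows) and ending nearer to it (1.49% at 1 Mb). The error bars of neighbourhood and chromosome overlapped at every distance for Klf4.

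**Figure D3:**
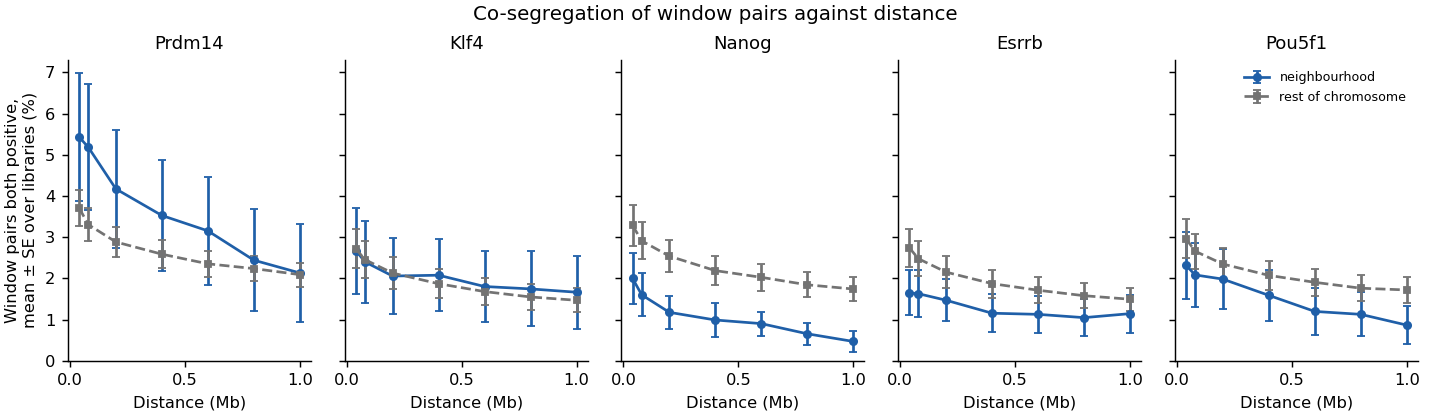
Percent of window pairs both positive in a library, as mean and SE over 74 libraries (vertical axis), against the distance between the windows in Mb, for each neighbourhood (blue circles) and the rest of its chromosome (grey squares). The Nanog, Esrrb and Pou5f1 curves lie below their chromosomes at all 7 distances and the Prdm14 curve above, with wide errors. Without f14c5 the Prdm14 mean over 0.2 to 1 Mb was below its chromosome.

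Continuity of the calls was compared too. Adjacent-window concordance counts the windows in adjacent positive pairs as a percent of these plus the pairs with 1 positive window, and it is high where a slice yields unbroken pieces. It was 64.1% at Prdm14 (jackknife SE 6.77, 54.1% on the rest of the chromosome), 53.4% at Klf4 (SE 8.01, 53.9%), 47.6% at Pou5f1 (SE 6.10, 52.3%), 43.7% at Nanog (SE 6.64, 52.6%) and 37.7% at Esrrb (SE 5.14, 51.8%). These values were not tested. Within the prefixes the Nanog value was 57.9% (f13) and 32.1% (f14), and the others differed less between them. With isolated calls removed, which raises concordance by construction, the values were 77.9% (Prdm14), 74.2% (Klf4), 70% (Pou5f1), 68.8% (Nanog) and 65.95% (Esrrb). As called, Esrrb stood lowest, with 61 adjacent pairs positive together and 202 with 1 of the pair positive, and Prdm14 highest, with 201 and 225.

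Normalized linkage (D′), the excess of co-segregation over independent presence divided by its largest possible size, was 0.421 at Prdm14 (jackknife SE 0.346) and 0.292 at Klf4 (SE 0.249) over pairs 0.2 to 1 Mb apart. It was 0.0476 at Pou5f1 (SE 0.198), -0.0588 at Esrrb (SE 0.197) and -0.161 at Nanog (SE 0.157), while the rest of the 5 chromosomes lay between 0.159 and 0.224. With 1 library left out, D′ fell to 0.0751 at Prdm14 (without f14c5), below its chromosome's 0.224, to 0.117 at Klf4 (f14d5), to -0.217 at Esrrb (f14a1) and to -0.292 at Nanog (f13b6). The highest value at Esrrb was -0.0191 (f14c7). At Pou5f1 it ranged from -0.0542 (f13c2) to 0.105 (f13e6), with the sign turned without any of 4 libraries. Pairs with a window called in 0 libraries have no D′ and were left out, 136 of 756 at Nanog and 25 of 756 at Klf4. A pair of detected windows never seen together has a D′ of -1 however rare they are. The part of such pairs in the mean D′ was not tested. Such pairs made up 41.5% of the Nanog pairs with a D′, 38.4% at Esrrb, 30.7% at Pou5f1, 16.8% at Klf4 and 3.17% at Prdm14. Within the prefixes D′ was -0.231 (f13) and 0.510 (f14) at Prdm14, -0.0426 and -0.386 at Nanog, -0.468 and -0.0298 at Esrrb, 0.0399 and 0.110 at Pou5f1, and 0.207 and 0.367 at Klf4. Within 0.5 Mb either side D′ was 0.0434 at Nanog and 0.0521 at Esrrb. With isolated positive windows set to negative it was -0.348 at Nanog and -0.307 at Esrrb. On the plain ratio of observed to independent co-segregation, all 5 were above 1, at 4.71 (Prdm14), 7.43 (Klf4), 4.04 (Nanog), 5.71 (Esrrb) and 5.79 (Pou5f1). The rest of their chromosomes gave 4.85, 6.29, 5.06, 5.72 and 5.59. On this scale the neighbourhoods differed from their chromosomes by less than 1 jackknife SE at Prdm14, Klf4, Esrrb and Pou5f1, and by more at Nanog (SE 0.796).

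In the map of window pairs at Prdm14, pairs were in up to 8 libraries. The library f14c5, which held 92.2% of the windows, adds 1 to most of the pairs. For a description chosen after seeing the map, pairs 0.2 to 0.6 Mb apart were split at each gene's start window. At Prdm14 the pairs before it were in 3.25% ± 1.28 of libraries (SE, n = 74), those after it in 4.72% ± 1.83 and those spanning it in 2.52% ± 1.52. At Nanog the order was the other way, with 0.963% ± 0.311 before, 0.796% ± 0.297 after and 1.56% ± 0.866 across. Spanning pairs draw only on windows within 0.6 Mb of the start window, while the other pairs draw on all windows of a side. The 6 Nanog windows called in 0 libraries lie farther out and so enter only the pairs before and after. Their part in this order was not tested. Spanning pairs were in between at Klf4 (1.88% before, 2.21% after, 2.16% across), and highest at Esrrb (0.966%, 1.28%, 1.63%) and Pou5f1 (1.51%, 1.33%, 1.78%). The errors are wide and belong to the single values. No error of a difference was computed, and no test was made. Of the 28 libraries that held a part of the Prdm14 neighbourhood, 14 held windows on both sides of the gene, 7 only before it and 7 only after it.

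**Figure D4:**
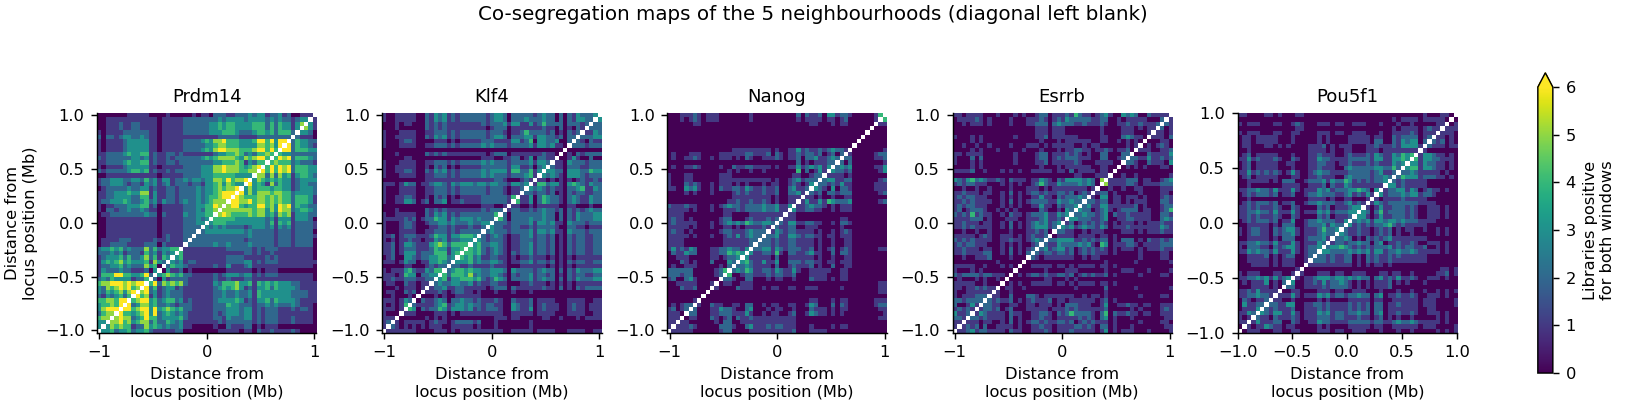
Number of libraries positive for both windows of a pair (colour, capped at 6), with both axes giving the distance of the window centres from the locus position in Mb, for the 5 neighbourhoods. The highest count of a pair was 8 at Prdm14 and 4 or 5 at the other genes, and the dark bands of the Nanog map are the windows called in 0 or few libraries, including the block from 0.72 to 0.88 Mb.

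Both neighbourhoods of a pair had a positive window in 5 (Prdm14 and Esrrb) to 14 libraries (Prdm14 and Pou5f1), where independent presence would give 9.08 and 12.1. For each of the 10 pairs, co-segregation in trans was the product of the shares of positive windows, averaged over libraries. It ranged from 0.0715% for Klf4 and Pou5f1 to 0.504% for Prdm14 and Pou5f1. Libraries differed in coverage, so the expected value came from shuffling 1 locus among libraries of similar coverage. Observed values were below expectation for 8 of the 10 pairs, with a median ratio of 0.581. The other 1340 pairs of a neighbourhood with a stretch of the other 4 chromosomes had a median ratio of 0.854, and 63.1% of them were below 1 too.

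None of the pairs passed the test, and neither did any other, 0 of 1350 (0%) at an adjusted p under 0.05 by the stratified permutation test and 62 at an unadjusted p under 0.05, with 0 of the 10 among them. Klf4 and Pou5f1 had the lowest ratio, 0.322 (0.0715% ± 0.0244 observed, SE, n = 74, and 0.222% expected; permutation p = 0.0803, adjusted p = 0.868). Esrrb and Pou5f1 had the highest, 1.36 (0.308% ± 0.180 against 0.227%; permutation p = 0.418, adjusted p = 0.972). Nanog and Pou5f1 were at 0.938, Nanog and Esrrb at 0.535, Klf4 and Nanog at 0.558 and Klf4 and Esrrb at 1.03. The 4 pairs with Prdm14 were at 0.471 (Klf4), 0.603 (Nanog), 0.512 (Esrrb) and 0.767 (Pou5f1). Adjusted permutation p-values were at least 0.868 for all 10.

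Against the mean over window pairs of the same chromosomes, 9 of the 10 pairs were lower and Prdm14 and Pou5f1 were at 1.05 times that mean. Both sides come from the same libraries, but the comparison is not adjusted for how often each neighbourhood was captured. For Nanog and Esrrb the shuffles alone gave 0.212%, against 0.418% for the chromosomes. The shuffles were above the chromosomes for Prdm14 and Klf4 (0.442% against 0.424%) and Prdm14 and Pou5f1 (0.657% against 0.482%), and below for the other pairs. The difference was -0.233 ± 0.0609 points (SE, n = 74) for Klf4 and Pou5f1, at 0.235 times the mean, and -0.305 ± 0.120 points for Nanog and Esrrb, at 0.271 times. For Nanog and Pou5f1 it was -0.282 ± 0.171 points and for Prdm14 and Nanog -0.213 ± 0.109. Ranked among the stretches of the second gene's chromosome, the pairs spread from low to above the middle. Prdm14 and Nanog were above 3 of 70 stretches, Klf4 and Pou5f1 above 2 of 43, Nanog and Esrrb above 9 of 56, Prdm14 and Klf4 above 14 of 73, Prdm14 and Esrrb above 16 of 56 and Klf4 and Nanog above 20 of 70. Prdm14 and Pou5f1 were above 13 of 43, Klf4 and Esrrb above 26 of 56, Nanog and Pou5f1 above 24 of 43 and Esrrb and Pou5f1 above 27 of 43. These differences from the chromosomes were not tested.

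Several of the trans averages rest on single profiles. The library f13f4 made up 82.6% of the Klf4 and Nanog value, f14c5 54.4% of that of Prdm14 and Pou5f1, and f13b4 54.2% of that of Esrrb and Pou5f1. Without f13f4 the Klf4 and Nanog ratio was 0.113, and without f13b4 the Esrrb and Pou5f1 ratio was 0.947, below 1. The ratio of Prdm14 and Esrrb was 0.272 without f14f5, which made up 50.6% of its value, and that of Prdm14 and Pou5f1 was 0.492 without f14c5. Nanog and Pou5f1 were at 0.583 without f13a3 and at 1.04 without f13c2. For Klf4 and Pou5f1 no library made up more than 18.5% of the value, and for Prdm14 and Nanog none more than 21.1%, and their ratios stayed within 0.280 to 0.402 and 0.493 to 0.706 with any 1 library left out. No library held 50% or more of both neighbourhoods of any pair. When a neighbourhood was scored only as held or not held, 6 of the 8 pairs below 1 moved above it, and the values are given with the alternatives.

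The gene windows were together in 2 cases. The library f13f4 was positive for the windows of Prdm14 and Nanog, and f14f5 for those of Prdm14 and Esrrb. The other 8 pairs of gene windows were seen in 0 of 74 libraries, which allows a frequency of up to 4.05% each by the same limit of 3 counts (95% Wilson upper bound 4.93%). Of the 74 libraries, 54 held none of the 5 gene windows, 18 held 1 and 2 held 2. Counting neighbourhoods with at least 1 positive window, 8 libraries held none, 25 held 1, 17 held 2, 19 held 3, 4 held 4 (f13g5, f14a4, f14b6 and f14c7) and f14a3 held all 5.

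**Figure D5:**
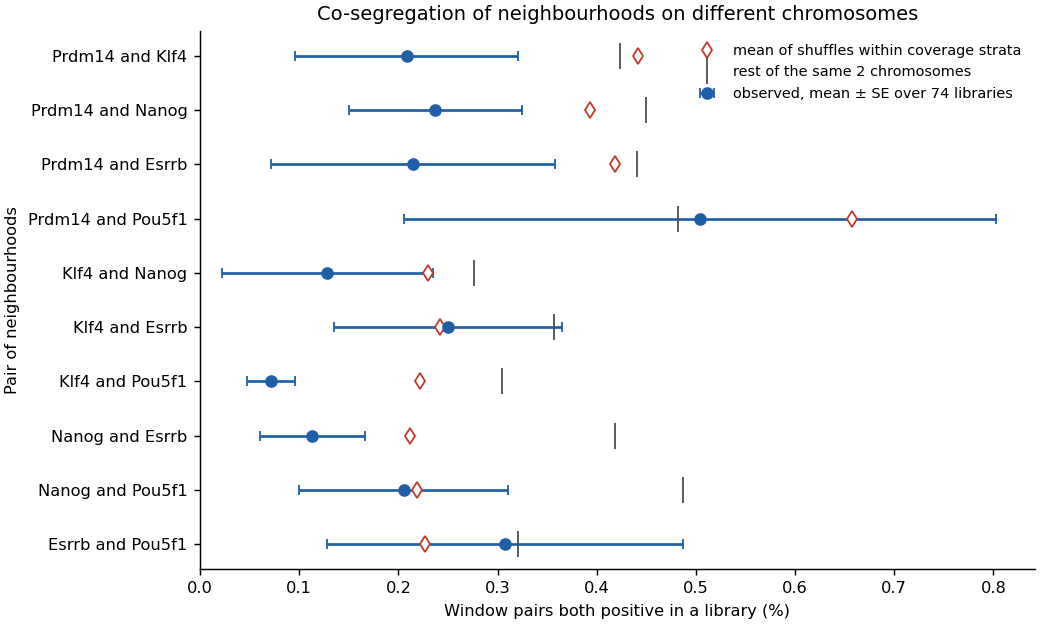
Percent of window pairs of 2 neighbourhoods on different chromosomes both positive in a library (horizontal axis), as mean and SE over 74 libraries (blue), with the mean of shuffles within coverage strata (red diamonds) and the rest of the same chromosomes (grey bars), for each of 10 pairs (vertical axis). The observed point lies left of the diamond for 8 of 10 pairs, with errors that reach it for several.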

How the data were processed

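The labels describe 74 GAM libraries of 1 nuclear profile each, with DNA amplified by whole-genome amplification (Sigma WGA4) and prepared with a Nextera kit. The values are of no standard unit: the deposited table gives, per library and 40 kb window of mm9, the authors' call of presence (1) or absence (0), with no scaling for depth. The submitters' processing notes name Bowtie2 2.1 and mm9. The methods describe GAMtools calls after duplicate removal for the multiplex libraries of the study. For the single-profile libraries the read threshold and the treatment of reads that map to several places are not given in the sources used here. Read depth is unknown, and a shallow library appears to hold less of the genome. Every value was 0 or 1, and all library columns matched a sample.

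Windows were assigned by position. The members, gene lists and tests were chosen with earlier results of these data known. Named genes were the 5 of the rule, 16 others of their neighbourhoods and 20 of the pluripotency network elsewhere, each by the window with its start in GENCODE vM1. The reference (NCBIM37) matched the table's ends for 20 of 20 chromosomes. Detection and local co-segregation of each neighbourhood, minus the rest of its chromosome from 3 Mb on, were tested over libraries by two-sided sign-flip permutation (100000 resamples, smallest p 1e-05), with Benjamini-Hochberg adjustment over 1173 stretches of 2.04 Mb on chromosomes 1 to 19, the 5 neighbourhoods included. Trans pairs were tested by two-sided permutation within 5 strata of autosomal coverage, adjusted over 1350 pairs. The threshold was 0.05. Intervals of differences are 1.96 SE either side, and those of frequencies are 95% Wilson intervals. Concordance and D′ carry jackknife SEs over libraries and no test. Repeated words were 31-base words found more than once in mm9, counted for all member windows and every 10th other window of the 5 chromosomes. The tests were tried on simulated tables. Python 3.11.15, numpy 2.4.6, scipy 1.17.1 and pandas 2.3.3 were used. Alternatives were the width, isolated calls, sparse libraries, prefixes, comparison windows, strata and scoring, with repeated windows, windows ever positive and single libraries added after seeing the data.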

Additional observations from a re-analysis of the deposited data

How the results depend on the processing

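The 30 values for neighbourhoods and pairs were recomputed under 13 settings, many of which apply to only some of them, which gave 234 recomputed values, 9 of them from alternatives added after seeing the data. These counts do not hold the fits with single libraries left out. Of 169 recomputed values with a test, 1 passed the threshold: local co-segregation at Nanog with isolated calls removed (-0.937 points). Of the fits without 1 library, 4 passed it, all for local co-segregation at Nanog. Groups could not be paired because the labels give 1 group, and the tests compare stretches within the same library. Signs turned for some differences, none past the threshold. For detection these were Klf4 within 0.5 Mb (0.851 points) and, among f13 libraries, Prdm14 (-0.279), Klf4 (0.748) and Pou5f1 (0.835). For local co-segregation they were Klf4 within 2 Mb (-0.107) and among f14 libraries (-0.138), and Prdm14 (-0.493) and Pou5f1 (0.221) among f13 libraries. Without f14c5 the local difference at Prdm14 was -0.287, and without f13b1 that at Klf4 was -0.332, with the sign also turned without f14d5.

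Over the 8 settings other than held or not, trans ratios ranged from 0.257 to 0.508 (Prdm14 and Klf4), 0.436 to 0.708 (Prdm14 and Nanog), 0.0466 in f13 to 0.768 in f14 libraries (Prdm14 and Esrrb), 0.294 to 1.27 (Prdm14 and Pou5f1), 0.0991 in f14 to 0.855 in f13 libraries (Klf4 and Nanog), 0.591 in f14 to 2.00 in f13 libraries (Klf4 and Esrrb), 0 with isolated calls removed to 0.584 (Klf4 and Pou5f1), 0.104 with isolated calls removed to 0.692 (Nanog and Esrrb), 0.627 to 1.12 (Nanog and Pou5f1) and 0.620 to 1.68 (Esrrb and Pou5f1). Of the values that crossed 1, Klf4 and Esrrb fell to 0.638 within 0.5 Mb, 0.848 with isolated calls removed, 0.861 without sparse libraries, 0.591 in f14 libraries and 0.902 with 10 strata. Nanog and Pou5f1 rose to 1.11 within 0.5 Mb and 1.12 in f13 libraries. Prdm14 and Pou5f1 rose to 1.27 with isolated calls removed and 1.06 in f14 libraries, and Esrrb and Pou5f1 fell to 0.620 in f14 libraries. Scored as held or not, the ratios were 1.17 (Prdm14 and Nanog), 1.03 (Prdm14 and Pou5f1), 1.06 (Klf4 and Nanog), 1.06 (Klf4 and Pou5f1), 1.05 (Nanog and Esrrb), 1.01 (Nanog and Pou5f1) and 0.970 (Esrrb and Pou5f1). The remaining pairs were at 0.971 (Prdm14 and Klf4), 0.578 (Prdm14 and Esrrb) and 1.50 (Klf4 and Esrrb) with this scoring. With single libraries left out the sign turned in 26 fits for Klf4 and Esrrb (0.805 to 1.26), 3 for Nanog and Pou5f1 (0.583 to 1.04) and 1 for Esrrb and Pou5f1 (0.947 to 1.64). The cause of these turns was not tested. D′ turned at Prdm14 in f13 libraries (-0.231), at Nanog (0.0434) and Esrrb (0.0521) within 0.5 Mb, and at Pou5f1 with isolated calls removed (-0.0519) and in 4 fits without 1 library (lowest -0.0542). The plain ratio in place of D′ is another scale and gave 4.71 (Prdm14), 7.43 (Klf4), 4.04 (Nanog), 5.71 (Esrrb) and 5.79 (Pou5f1).

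Concordance moved most with isolated calls removed, from 37.7% to 65.95% at Esrrb, 43.7% to 68.8% at Nanog and 47.6% to 70% at Pou5f1. Apart from single libraries, detection kept its direction in 38 recomputed values and turned in the 4 above. With 74 profiles a window present in 4 of them has a wide interval, read depth is unknown, and values of a pair can rest on 1 library. The sign-flip test assumes symmetric differences, and the measured ones had a median skewness over stretches of 1.90 for detection and 3.14 for local co-segregation.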
